A study of Mus musculus with 9 samples.

Results

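The aryl hydrocarbon receptor pathway was described in mouse liver through 6 genes chosen by name in the deposited table: the receptor Ahr, its partner Arnt, the feedback repressors Ahrr and Tiparp, and the target enzymes Cyp1a1 and Cyp1a2. All 6 were among the 55401 genes of the table, and 5 of them had enough counts to be among the 12660 genes tested. RNA came from the left liver lobe of 3 mice in each of 3 groups, and libraries were made with a kit that reads the 3′ end of each messenger RNA. The STAM + Atglistatin mice (replicates 4, 5 and 6) were males given 200 µg streptozotocin under the skin at 2 days of age, then a high-fat diet containing Atglistatin from 4 weeks of age for 4 weeks. The STAM mice (replicates 1, 2 and 3) had the same injection and high-fat diet with no Atglistatin. The chow mice (replicates 7, 8 and 9) had neither streptozotocin nor Atglistatin and ate chow, so the STAM groups differ from chow in the toxin and in the diet together. Streptozotocin kills the insulin-producing beta cells of the pancreas, and Atglistatin inhibits adipose triglyceride lipase, the enzyme that starts the breakdown of stored fat. The strain is not given in the sources used here.

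AHR is a ligand-activated transcription factor that waits in the cytoplasm with HSP90 and other chaperones. Dioxins, polycyclic aromatic compounds, indoles and some tryptophan metabolites bind it, after which it enters the nucleus, pairs with ARNT and binds a short DNA element with the core GCGTG. Cyp1a1 is its classical target and is nearly silent in uninduced liver, whereas Cyp1a2, a cytochrome P450 that metabolizes caffeine and aromatic amines, is made constitutively by the hepatocytes around the central vein and is raised further by AHR ligands. AHRR competes with AHR for ARNT, and TIPARP is an ADP-ribosyltransferase that dampens AHR; both are themselves AHR targets.

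Library totals were 7.38 to 9.89 in units of 1e+06 counts. Each of the 10 general hepatocyte markers was detected in every library, and their summed level was 89800 to 93200 CPM (counts scaled to 1e+06 per library) in STAM + Atglistatin, 65400 to 76500 CPM in STAM and 114000 to 127000 CPM in chow. Alb was the largest part, with means of 45650, 29420 and 60280 CPM in these groups. By edgeR, 6 of the 10 were lower in STAM than in chow, against 1.99% of all tested genes, and none was higher. In STAM + Atglistatin against chow 6 were also lower, against 1.97%, and none was higher. In STAM + Atglistatin against STAM, Alb was higher and Apob lower. Mitochondrial transcripts took 8.64 to 9.72% of counts in STAM + Atglistatin, 11 to 11.6% in STAM and 7.32 to 8.78% in chow. One chow mouse, replicate 7, was unlike its group: the summed level of 11 pericentral markers was 3220 CPM, the lowest of the 9 libraries, and that of 8 stellate cell and fibroblast markers was 750 CPM, the highest. Results that involve chow are therefore given without it where it matters. Nothing in the labels states separate cages or litters, so p-values measure the spread between these mice, and in whole liver fewer cells of a type and less RNA per cell cannot be told apart.

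Cyp1a1 and Cyp1a2 lie side by side and point away from each other, their RefSeq start sites 13958 bases apart. In GRCm38, Cyp1a2 (ENSMUSG00000032310) is at chr9:57676937-57683703 on the minus strand and Cyp1a1 (ENSMUSG00000032315) at chr9:57687928-57703824 on the plus strand. Neither overlaps another annotated gene. The 250 bases upstream of each start site are shown because Cyp1a2 is the gene whose difference passed the test and Cyp1a1 its nearest relative and neighbour. They come from RefSeq (GRCm38.p6), the Cyp1a2 window at chr9:57683656-57683905 on the minus strand and the Cyp1a1 window at chr9:57697363-57697612 on the plus strand. Capitals mark the letters TATAAA and, in Cyp1a1, the AHR core GCGTG.
Cyp1a2: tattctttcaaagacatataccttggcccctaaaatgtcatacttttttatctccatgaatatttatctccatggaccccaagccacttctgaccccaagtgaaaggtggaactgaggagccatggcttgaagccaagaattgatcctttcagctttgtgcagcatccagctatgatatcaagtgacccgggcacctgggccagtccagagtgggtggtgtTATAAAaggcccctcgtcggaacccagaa
Cyp1a1: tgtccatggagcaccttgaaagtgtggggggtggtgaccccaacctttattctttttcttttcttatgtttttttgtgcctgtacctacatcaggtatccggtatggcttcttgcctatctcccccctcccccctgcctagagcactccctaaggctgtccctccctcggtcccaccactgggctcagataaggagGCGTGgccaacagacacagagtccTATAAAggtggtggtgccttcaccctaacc

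Each window has TATAAA shortly before the start site, at -29 in Cyp1a2 and -30 in Cyp1a1, counted from the start site. GCGTG, searched on both strands, was found in the Cyp1a1 window at -54 and has no match in the Cyp1a2 window. Over windows from 250 bases before to 50 after the start, GCGTG occurred in 4 of the 5 genes of the pathway that have a promoter in the RefSeq table, against 32.4% of all 32851 promoters. Ahrr had 3 matches, and Arnt, Tiparp and Cyp1a1 had 1 each. The longer form TNGCGTG, which contains the core, was found among these genes in Ahrr, against 5.07% of all promoters. TATAAA, searched on the gene's strand, was in 8.32% of all promoters. A match in letters describes the window and does not show a bound site. Bases between the Cyp1a1 and Cyp1a2 start sites beyond these windows were not searched. A window without a match therefore does not show that a gene lacks the element.

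Cyp1a2 was the one gene of the pathway whose RNA passed the test, and it did so in every comparison: it was highest in STAM + Atglistatin, intermediate in chow and lowest in STAM. Its level was 2515, 2009 and 1901 CPM in the STAM + Atglistatin mice, 636.1, 651.1 and 662.5 CPM in the STAM mice, and 824.1, 1423 and 1260 CPM in the chow mice. No group overlapped another, and the STAM mice lay within a few percent of each other while the chow mice spread widely. For comparison, 8.60% of all tested genes were higher without overlap in STAM + Atglistatin than in STAM, 9.57% were higher in STAM + Atglistatin than in chow, and 10.2% were lower in STAM than in chow. Cyp1a2 is an abundant transcript, ranked 40 to 52 by counts in STAM + Atglistatin, 171 to 174 in STAM and 87 to 125 in chow.

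**Figure D1:**
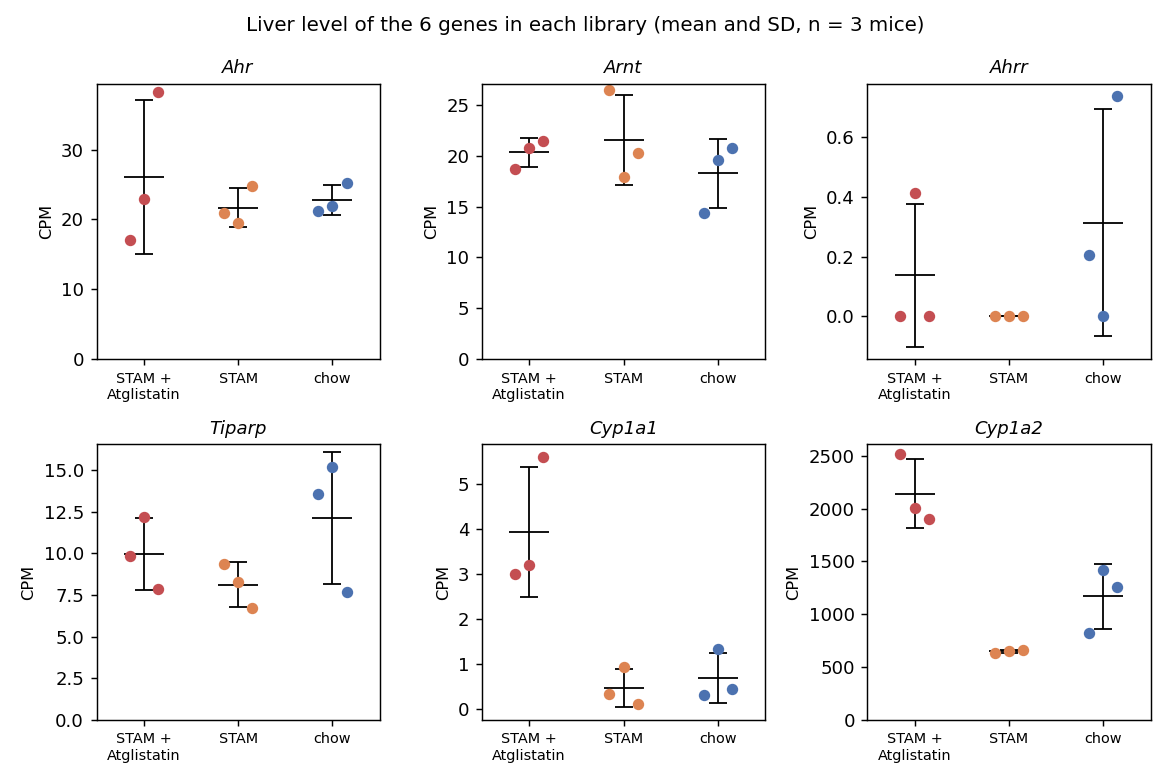
Level of the 6 pathway genes in each mouse, in CPM on a linear axis that differs between panels, with the STAM + Atglistatin mice at the left, STAM in the middle and chow at the right; points are mice, with the group mean and 1 SD. Cyp1a2 separates all 3 groups (means 2142, 650 and 1169 CPM), Cyp1a1 separates STAM + Atglistatin from the others, and Ahr, Arnt and Tiparp overlap between groups.

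With Atglistatin, Cyp1a2 was 3.3-fold higher than in STAM, with means of 2142 ± 328 CPM in STAM + Atglistatin and 650 ± 13.3 CPM in STAM (SD, n = 3 each). On the log2 scale the change was 1.72 ± 0.17 (SE), with an adjusted p of 5.61e-06 by edgeR's quasi-likelihood test. By p-value it ranked 16 among the 12660 genes. Cyp1a2 was thus the 1 gene higher of the 5 pathway genes tested, and none was lower. In this comparison 1.79% of all tested genes passed, 1.04% higher and 0.742% lower. The pathway genes were chosen with earlier results of these data known. Their counts of passing genes are therefore not independent evidence in any comparison. In the authors' deposited table the Cyp1a2 change was 1.59 on the log2 scale.

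In STAM, Cyp1a2 was 1.80-fold lower than in chow, with means of 650 ± 13.3 CPM in STAM and 1169 ± 310 CPM in chow (SD, n = 3 each). The log2 fold change was -0.85 ± 0.16 (SE), with an adjusted p of 0.00419 by edgeR. It was the 1 gene lower of the 5 tested, and none was higher, against 3.94% of all tested genes that passed, 1.99% lower and 1.95% higher. The chow mouse nearest to STAM was replicate 7, and without it the log2 fold change was -1.05 ± 0.12 with an adjusted p of 4.55e-06 by edgeR. Without chow replicate 8 it was -0.68 ± 0.16 with an adjusted p of 0.0332 by edgeR, the highest of the other settings.

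The STAM + Atglistatin mice also exceeded chow for Cyp1a2, by 1.83-fold. The log2 fold change was 0.87 ± 0.16 (SE), with an adjusted p of 0.00332 by edgeR, and 0.67 ± 0.12 with an adjusted p of 0.0013 without chow replicate 7. Again 1 of the 5 genes was higher and none lower, against 4.08% of all tested genes that passed, 2.10% higher and 1.97% lower. No pathway gene other than Cyp1a1 and Cyp1a2 had an unadjusted p under 0.05 by edgeR in any comparison, or passed by DESeq2 or limma-voom. The 3 comparisons share their groups, so their Cyp1a2 values are not independent of each other. Cyp1a2 passed in each of the 15 other settings tried in each comparison.

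Cyp1a1 was a rare transcript whose highest levels were also in STAM + Atglistatin, but its differences did not pass the test by edgeR. It had 30, 31 and 52 counts in the STAM + Atglistatin mice, 3, 8 and 1 counts in the STAM mice, and 3, 11 and 3 counts in the chow mice. Scaled, these were 3.005, 3.207 and 5.612 CPM in STAM + Atglistatin, 0.331, 0.943 and 0.12 CPM in STAM, and 0.308, 1.324 and 0.443 CPM in chow. Every STAM + Atglistatin mouse was above every other mouse, as held for 8.60% of all tested genes against STAM and 9.57% against chow. STAM and chow overlapped. Cyp1a1 reached the minimum count for testing only through the STAM + Atglistatin group, so that its presence among the tested genes already rests on that group being high.

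Against STAM, the log2 fold change of Cyp1a1 in STAM + Atglistatin was 3.05 ± 0.83 (SE), with an adjusted p of 0.0864 by edgeR. The call depended on the method: DESeq2 gave an adjusted p of 0.00751, edgeR with no low-count filter 0.0192, edgeR on the 6 libraries of these groups 0.0229 and edgeR without chow replicate 7 0.0401, within a range of 0.00751 to 0.338 over 15 settings. Leaving out 1 mouse gave log2 fold changes of 2.61 to 4.03, the highest without STAM replicate 2. The authors' deposited values were 1.1 ± 0.282 (SE) against STAM and 0.977 ± 0.282 against chow, with the authors' adjusted p of 0.00638 and 0.0152. Both the fold changes and their SEs were smaller than those from edgeR, so the sizes may not be on the same scale. Against chow, the log2 fold change was 2.49 ± 0.80 with an adjusted p of 0.105 by edgeR and 0.0249 by DESeq2, within 0.0249 to 0.3 over 15 settings, and 2.11 to 3.37 when 1 mouse was left out, the highest without chow replicate 8. STAM against chow gave -0.56 ± 0.87 with an adjusted p of 0.856 by edgeR, and 0.32 without chow replicate 8, so no direction could be read at this depth. The Poisson 95% interval of the summed counts was 3.22 to 4.70 CPM in STAM + Atglistatin, 0.24 to 0.81 CPM in STAM and 0.399 to 1.10 CPM in chow, which covers counting error only.

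Cyp1a1 and Cyp1a2 are close relatives, and how the authors' counting treated reads that match both is not given in the sources used here. Of the 25-base words in the last 500 bases of the annotated protein-coding transcripts, where a 3′ kit reads, 0 of 476 in Cyp1a2 and 0 of 479 in Cyp1a1 occurred in the other gene, while 189 were shared over the whole transcripts. Cyp1a1 counts were 0.12, 0.16 and 0.295% of Cyp1a2 counts in STAM + Atglistatin, 0.0521, 0.145 and 0.0181% in STAM, and 0.0374, 0.093 and 0.0351% in chow. The lowest of these shares rests on 1 Cyp1a1 count, and the part of reads that match both genes in these counts was not tested.

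**Figure D2:**
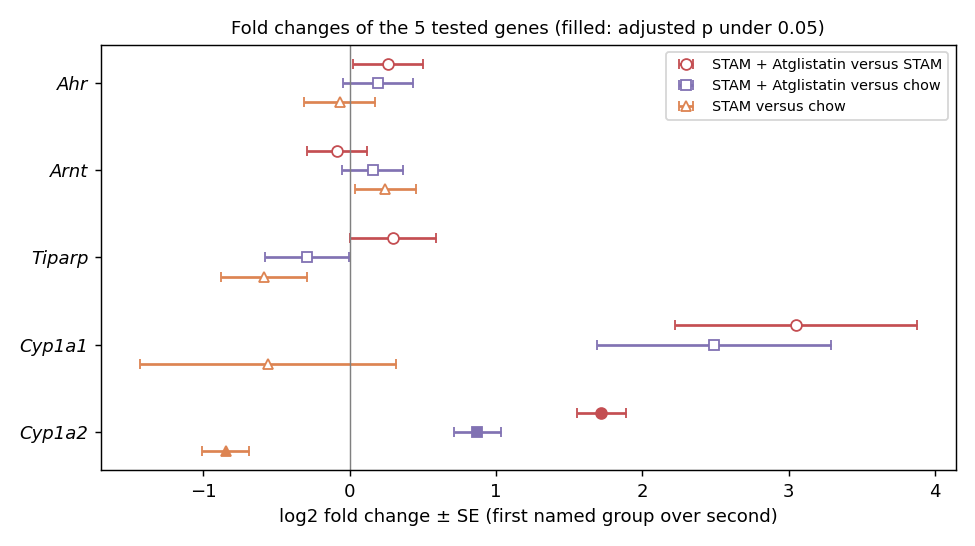
log2 fold change of the 5 tested pathway genes in each comparison, with bars of 1 SE from the edgeR fit; filled points passed at an adjusted p under 0.05. Cyp1a2 is the gene that passed in each comparison (1.72, -0.85 and 0.87), Cyp1a1 has the highest values for STAM + Atglistatin against STAM and against chow, with wide errors, and Ahr, Arnt and Tiparp lie within 0.6 of 0.

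The receptor itself did not pass in any comparison. Ahr (ENSMUSG00000019256, GRCm38 chr12:35497974-35535038, minus strand) had 17.03, 22.97 and 38.31 CPM in STAM + Atglistatin, 20.86, 19.45 and 24.83 CPM in STAM, and 21.27, 21.91 and 25.23 CPM in chow. The groups overlapped, and 1 mouse, STAM + Atglistatin replicate 6, was above all the others. The log2 fold change was 0.26 ± 0.24 for STAM + Atglistatin against STAM, -0.07 ± 0.24 for STAM against chow and 0.20 ± 0.24 for STAM + Atglistatin against chow (SE; adjusted p of 0.818, 0.946 and 0.794 by edgeR). Without that mouse the first and last of these were -0.12 and -0.19.

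Arnt (ENSMUSG00000015522, chr3:95434388-95497240, plus strand), the shared partner of AHR and of the hypoxia-inducible factors, had 18.73, 20.79 and 21.48 CPM in STAM + Atglistatin. It had 26.49, 17.92 and 20.28 CPM in STAM and 14.38, 19.62 and 20.81 CPM in chow. These ranges overlapped too, with log2 fold changes of -0.09 ± 0.21 for STAM + Atglistatin against STAM, 0.24 ± 0.21 for STAM against chow and 0.16 ± 0.21 for STAM + Atglistatin against chow (SE; adjusted p of 0.948, 0.678 and 0.812 by edgeR). A p above the threshold does not show that Ahr or Arnt RNA was equal. Gm48236 overlaps Ahr on the other strand and the pseudogene Gm42672 overlaps Arnt on the same strand, and the strand setting of the counting is not given in the sources used here.

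Of the feedback repressors, Tiparp (ENSMUSG00000034640, chr3:65528410-65555518, plus strand) was tested and Ahrr was not. Tiparp had 9.818, 12.21 and 7.878 CPM in STAM + Atglistatin, 9.382, 8.251 and 6.719 CPM in STAM, and 13.56, 15.17 and 7.673 CPM in chow. All groups overlapped. The log2 fold changes were 0.29 ± 0.29 for STAM + Atglistatin against STAM, -0.58 ± 0.29 for STAM against chow and -0.29 ± 0.29 for STAM + Atglistatin against chow (SE; adjusted p of 0.828, 0.379 and 0.732 by edgeR). The pseudogene 4931440P22Rik overlaps Tiparp on the other strand.

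Ahrr (ENSMUSG00000021575, chr13:74211118-74292331, minus strand) was close to absent, with 0, 4 and 0 counts in STAM + Atglistatin, 0, 0 and 0 counts in STAM and 2, 0 and 5 counts in chow. A count of 0 over the STAM libraries allows up to 0.116 CPM by the floor of 3 counts. The Poisson 95% interval of the summed counts was 0.0377 to 0.354 CPM in STAM + Atglistatin, 0 to 0.143 CPM in STAM and 0.113 to 0.581 CPM in chow. With no low-count filter its adjusted p was 0.768 for STAM + Atglistatin against STAM, 0.585 for STAM against chow and 0.94 for STAM + Atglistatin against chow by edgeR. A difference in Ahrr was not detectable at this depth.

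Beyond Cyp1a1 and Cyp1a2, a list of 14 genes reported as AHR targets was examined, of which 12 were tested. The list was drawn up with earlier results of these data known, so its direction is not independent evidence. In STAM + Atglistatin against STAM, 4 of the 12 were higher and none lower, against 1.04% and 0.742% of all tested genes, and the median log2 fold change was 0.50. Against chow, 4 of the 12 were higher and none lower, with a median of 0.67, whereas STAM against chow had 1 higher and none lower, with a median of 0.14. The median over all tested genes was within 0.01 of 0 in each comparison, and no battery gene was lower by edgeR at an unadjusted p under 0.05, by DESeq2 or by limma-voom. The counts moved with single mice: against STAM they were 1 when STAM replicate 2 was left out, and 2 when STAM replicate 1 or either of STAM + Atglistatin replicates 4 and 5 was. Against chow the count for STAM + Atglistatin was 2 without chow replicate 9, and that for STAM was 3 without chow replicate 7 and 0 without chow replicate 8 or STAM replicate 3.

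Nqo1, a quinone reductase that is also a target of NRF2, was higher with Atglistatin. It had 14.83, 18.83 and 19.43 CPM in STAM + Atglistatin, 5.298, 4.951 and 8.158 CPM in STAM and 7.397, 2.648 and 2.361 CPM in chow. The STAM + Atglistatin mice did not overlap the others, as held for 8.60% of all tested genes against STAM and 9.57% against chow. Among chow mice replicate 7 was the highest. The log2 fold change was 1.53 ± 0.36 against STAM and 2.06 ± 0.37 against chow (SE; adjusted p of 0.0349 and 0.00274 by edgeR). Without chow replicate 7 the value against chow was 2.81 (adjusted p of 1.91e-05 by edgeR). The call against STAM was lost when any STAM + Atglistatin mouse or STAM replicate 1 or 2 was left out, with adjusted p up to 0.202.

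Fmo2, a flavin-containing monooxygenase that oxidizes amines and sulfides, was also higher with Atglistatin. It had 31.56, 27.62 and 36.8 CPM in STAM + Atglistatin, 14.79, 13.44 and 16.44 CPM in STAM, and 6.164, 7.464 and 9.149 CPM in chow. No group overlapped another, and STAM lay between the others. Of all tested genes, 8.60% were higher without overlap in STAM + Atglistatin than in STAM, 9.57% in STAM + Atglistatin than in chow and 10.5% in STAM than in chow. Fmo2 had a log2 fold change of 1.10 ± 0.20 for STAM + Atglistatin against STAM, 0.98 ± 0.22 for STAM against chow and 2.08 ± 0.22 for STAM + Atglistatin against chow (SE; adjusted p of 0.00507, 0.0132 and 7.73e-06 by edgeR). The STAM against chow call was lost without chow replicate 8 or STAM replicate 3, with adjusted p up to 0.0603.

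Nfe2l2, which encodes NRF2, the regulator of antioxidant genes, had 144.1, 162.1 and 169.5 CPM in STAM + Atglistatin, 105.2, 97.95 and 99.82 CPM in STAM, and 101.2, 119.2 and 92.82 CPM in chow. Its log2 fold change was 0.65 ± 0.13 against STAM and 0.60 ± 0.13 against chow (SE; adjusted p of 0.00897 and 0.0104 by edgeR), lost without STAM + Atglistatin replicate 5 or STAM replicate 2 and, against chow, without chow replicate 9. Htatip2 had 73.83, 67.97 and 72.53 CPM in STAM + Atglistatin, 33.44, 31.71 and 39.47 CPM in STAM, and 57.53, 28.41 and 31.28 CPM in chow. The STAM + Atglistatin mice were above all the others in both genes, as held for 8.60% of all tested genes against STAM and 9.57% against chow. For Htatip2, chow replicate 7 was the highest chow mouse. Its log2 fold change was 1.03 ± 0.21 against STAM and 0.86 ± 0.21 against chow (SE; adjusted p of 0.0108 and 0.0227 by edgeR), lost against STAM without STAM + Atglistatin replicate 4 or STAM replicate 1 or 2. Against chow it was lost without any 1 of the STAM + Atglistatin mice, without chow replicate 8 or 9, and on the 6 libraries of these groups alone.

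The other battery genes did not pass by edgeR with all 9 libraries. Other settings called up to 5 battery genes in STAM + Atglistatin against STAM, up to 3 in STAM against chow and up to 6 in STAM + Atglistatin against chow. Aldh3a1 had 0 counts in every library, Cyp1b1 had 18 counts summed over STAM + Atglistatin, 20 over STAM and 19 over chow, and Ugt1a6a had 25, 26 and 13. Ugt1a6a shares its downstream exons with Ugt1a6b and Ugt1a7c, so its counts are uncertain. Gsta1, a glutathione transferase, had 50, 62 and 54 counts in STAM + Atglistatin and 39, 13 and 28 counts in STAM, but 164, 0 and 0 counts in chow, where replicate 7 held them all.

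**Figure D3:**
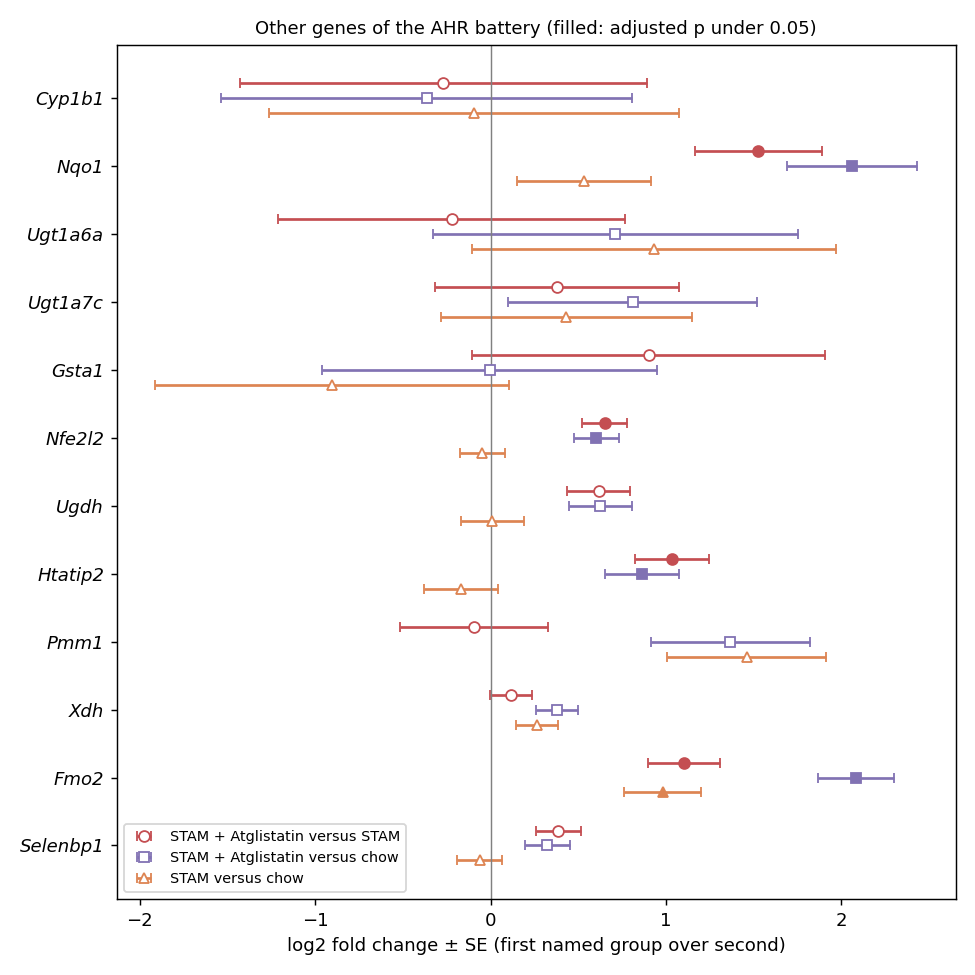
log2 fold change of the tested AHR battery genes in each comparison, with bars of 1 SE from the edgeR fit and filled points for an adjusted p under 0.05. The genes that passed with Atglistatin (Nqo1, Nfe2l2, Htatip2 and Fmo2) lie above 0 for STAM + Atglistatin against STAM and against chow; the rare transcripts Cyp1b1, Ugt1a6a and Gsta1 have errors close to 1.

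Lists of chaperones, of relatives and partners of ARNT, and of tryptophan enzymes were also examined. Of all tested genes, 3.94% passed in STAM against chow, 1.79% in STAM + Atglistatin against STAM and 4.08% in STAM + Atglistatin against chow. Whether these short lists differ from those shares was not tested. Of the 5 chaperone genes of the cytoplasmic complex, none passed in any comparison by edgeR, DESeq2 or limma-voom and none had an unadjusted p under 0.05 by edgeR, and 1 was lower in STAM than in chow without chow replicate 7. Of 10 tested relatives and partners of ARNT, none passed in STAM + Atglistatin against STAM by any of these tools, and none in STAM against chow by edgeR or DESeq2, with 1 lower by limma-voom, 1 lower by edgeR without chow replicate 7, and 1 in each direction at an unadjusted p under 0.05. Against chow, 1 was higher in STAM + Atglistatin, the circadian gene Per3, at 0.95 ± 0.25 on the log2 scale (adjusted p of 0.0344 by edgeR), a call lost in 7 of 15 settings, among them without any 1 of the chow mice, STAM + Atglistatin replicate 4 or 5, or STAM replicate 1. Per3 overlaps Camta1 on the same strand. Without STAM + Atglistatin replicate 6, 1 gene of this list was higher and 1 lower than in chow. Of 11 tested enzymes that make or consume kynurenines and other tryptophan products, Haao, which consumes hydroxyanthranilate, was lower in STAM than in chow at -0.60 ± 0.14 (adjusted p of 0.014 by edgeR). This call was lost when STAM replicate 1 or 2 was left out, or either of chow replicates 8 and 9. Aadat, an aminotransferase of kynurenine, was lower in STAM + Atglistatin, at -0.71 ± 0.14 against STAM and -0.70 ± 0.14 against chow (adjusted p of 0.00685 and 0.00464 by edgeR), and the call against STAM was lost without STAM replicate 2. When chow replicate 7 was left out, 2 genes of this list were lower in STAM + Atglistatin against STAM and 2 against chow. When STAM replicate 3 was left out, 2 were lower in STAM against chow.

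Of 4 genes for the P450 reductase, cytochrome b5 forms and cytochrome b5 reductase, 1 was higher and 2 were lower in STAM than in chow. Of the same genes, 1 was higher in STAM + Atglistatin than in STAM, and 2 were higher in STAM + Atglistatin than in chow. The shares of all tested genes were 1.95% higher and 1.99% lower, 1.04% higher, and 2.10% higher in these comparisons. In STAM + Atglistatin against chow, 4 passed when chow replicate 7 was left out, 2 of them lower, and 1 passed without STAM + Atglistatin replicate 4, chow replicate 8 or 9, or STAM replicate 1. Por, the reductase that every microsomal P450 needs, had 425.6, 493.6 and 382.2 CPM in STAM + Atglistatin, 320.1, 368.7 and 391.1 CPM in STAM, and 168.2, 182.4 and 159.2 CPM in chow. Every mouse of the STAM groups was above every chow mouse, as held for 10.5% of all tested genes in STAM against chow, while the STAM groups overlapped each other. Por had a log2 fold change of 1.08 ± 0.13 for STAM against chow and 1.35 ± 0.13 for STAM + Atglistatin against chow (SE; adjusted p of 4.12e-05 and 3.08e-06 by edgeR). Cyb5b, an outer mitochondrial cytochrome b5, had 290.7, 323.3 and 290.6 CPM in STAM + Atglistatin, 197.4, 180 and 234.4 CPM in STAM, and 323.9, 408.1 and 417.3 CPM in chow. Like Cyp1a2, Cyb5b was lowest in STAM, at -0.91 ± 0.13 against chow (adjusted p of 0.000377 by edgeR) and 0.56 ± 0.13 for STAM + Atglistatin against STAM (adjusted p of 0.0346 by edgeR), which was lost without any 1 of the STAM + Atglistatin mice or STAM replicate 1 or 2. Cyb5r3, the cytochrome b5 reductase, was lower in STAM than in chow at -0.79 ± 0.15 (adjusted p of 0.00388 by edgeR), and Cyb5a was higher in STAM + Atglistatin than in chow at 0.55 ± 0.14 (adjusted p of 0.0296 by edgeR), lost without STAM + Atglistatin replicate 4 or 5, chow replicate 8 or 9 or STAM replicate 1.

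Because Cyp1a2 is made mainly by pericentral hepatocytes, 11 other markers of that zone were set beside it. In STAM + Atglistatin against STAM, 2 of 11 were lower and none was higher, against 0.742% and 1.04% of all tested genes, and the median log2 fold change was -0.32. In STAM against chow 2 were higher and none was lower, against 1.95% and 1.99% of all tested genes, and the median was 0.36. In STAM + Atglistatin against chow none passed by edgeR or limma-voom and 1 was higher by DESeq2, with 1 higher at an unadjusted p under 0.05 by edgeR; without chow replicate 7, 1 was lower, and without chow replicate 8, 1 was higher. The markers that passed were Oat, an ornithine aminotransferase, and Slc1a2, a glutamate transporter, both opposite in sign to Cyp1a2. Oat had a log2 fold change of -0.91 ± 0.16 for STAM + Atglistatin against STAM and 1.04 ± 0.17 for STAM against chow (SE; adjusted p of 0.00421 and 0.000821 by edgeR). Slc1a2 had -0.81 ± 0.18 and 0.73 ± 0.18 in the same comparisons (adjusted p of 0.0253 and 0.0294 by edgeR). The call against STAM was lost without STAM + Atglistatin replicate 4 or 5 or STAM replicate 1 or 3, and that against chow when STAM replicate 1 or 3, or either of chow replicates 7 and 9, was left out. Oat overlaps Fgfr2 on the same strand.

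The defining pericentral genes Glul and Cyp2e1 did not pass. Cyp2e1 had 2915, 3299 and 3319 CPM in STAM + Atglistatin, 4286, 3274 and 4341 CPM in STAM, and 1899, 3950 and 3420 CPM in chow. The summed pericentral level was 4520 to 5240 CPM in STAM + Atglistatin, 5280 to 6810 CPM in STAM and 3220 to 6130 CPM in chow. Each STAM + Atglistatin mouse thus had a lower sum than any STAM mouse, but only narrowly. The nearest were STAM + Atglistatin replicate 6 at 5243 CPM and STAM replicate 2 at 5283 CPM. Cyp2e1, whose groups overlapped, made up most of the sum. At an unadjusted p under 0.05 by edgeR, 2 of the 11 markers were higher and 4 lower in STAM + Atglistatin than in STAM. Cyp1a2 was higher there, and the reason was not tested.

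**Figure D4:**
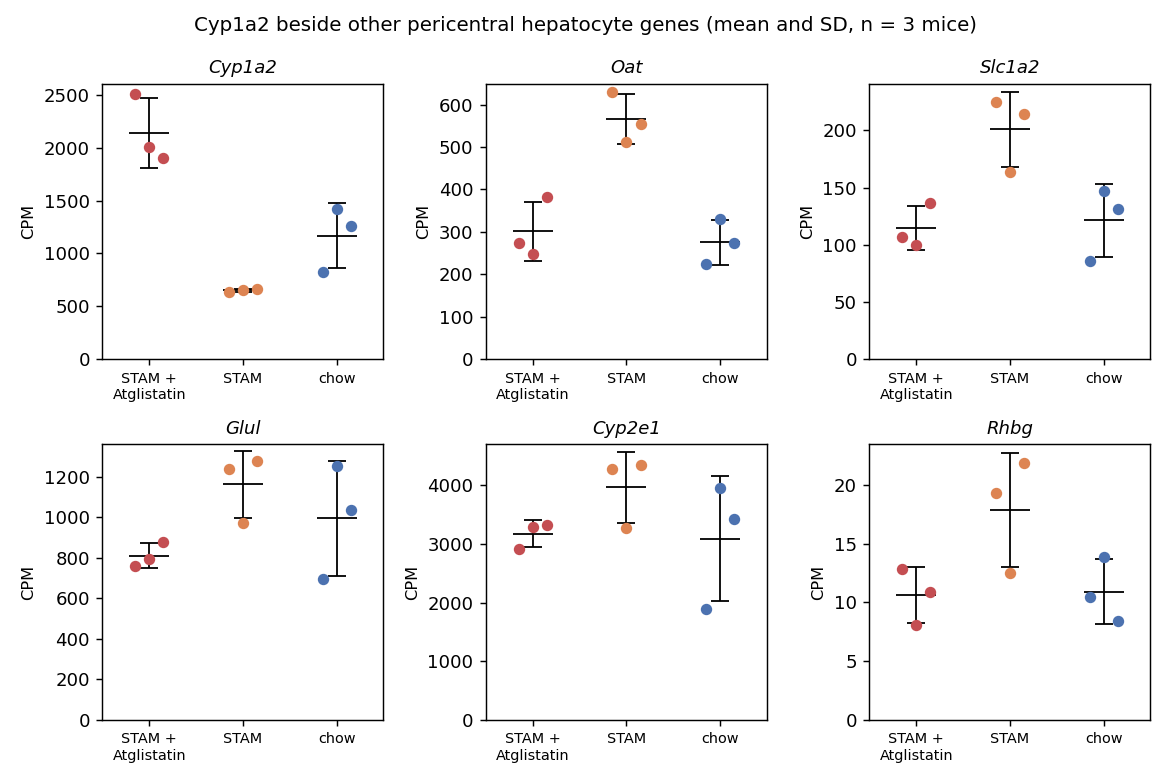
Level of Cyp1a2 and of the first 5 pericentral markers of the list in each mouse, in CPM on axes that differ between panels, with STAM + Atglistatin at the left, STAM in the middle and chow at the right; lines are group means with 1 SD. Cyp1a2 is lowest in STAM, whereas Oat and Slc1a2 are highest there, and Cyp2e1 overlaps between groups.

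Over the 9 libraries, the genes with levels most like Cyp1a2 among 7793 searched were Tkt (Pearson r = 0.97), a transketolase of the pentose phosphate pathway, and BC031181 (r = 0.95). Tkt had a log2 fold change of 0.64 ± 0.13 for STAM + Atglistatin against STAM (adjusted p of 0.0129 by edgeR). Those most like Cyp1a1 were Fam162a (r = 0.97) and Elmo3 (r = 0.96), and those most like Ahr were Ggh (r = 0.92) and Xpnpep3 (r = 0.91). Arnt was most like Rdh16 (r = 0.93) and Uchl5 (r = 0.92), and Tiparp most like Naglu (r = 0.90) and Tgfbrap1 (r = 0.89). Among the pathway genes, r with Cyp1a2 was 0.84 for Cyp1a1, 0.26 for Tiparp, 0.16 for Ahr and 0.006 for Arnt. These values describe 9 libraries that share 3 groups and a scaling, and carry no test.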

How the data were processed

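Raw read counts per gene were deposited by the authors for 9 libraries, aligned with STAR to GRCm38 per the submitters' processing notes; for the STAR version, counter, annotation, strand and multimapper settings, the sources used here say nothing. The table also holds the authors' log2 fold changes and the authors' adjusted p-values, under column names that DESeq2 writes. Groups came from titles and the design text; a treatment label at odds with these was ignored. The 7 ribosomal RNA entries (0.26 to 0.528% of counts) were left out. edgeR 4.0.16 under R 4.3.3 tested the counts (TMM, filterByExpr, 1 quasi-likelihood fit to 9 libraries, Benjamini-Hochberg over 12660 genes, threshold 0.05). Adjusted p-values in the text are from edgeR's quasi-likelihood test unless another tool is named. CPM use TMM-scaled totals; intervals and floors of 3 counts cover counting error only. Alternatives included DESeq2 1.42.0 and limma 3.58.1 (voom with sample weights), other scalings, no filter, the 2 groups alone and leaving out each mouse. The procedure was tested on simulated data. Promoters were from RefSeq, positions from GENCODE. Every member is named; list genes are named when they pass, at most 4 a list. Members and lists were chosen with earlier results of these data known. One AHR target of the list is not reported here and is left out of the list's counts.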

Additional observations from a re-analysis of the deposited data

How the results depend on the processing

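Cyp1a2 kept its direction and its call in all 15 alternatives of each comparison, at 1.58 to 1.80 on the log2 scale for STAM + Atglistatin against STAM, -1.05 to -0.68 for STAM against chow and 0.67 to 1.04 for STAM + Atglistatin against chow. Pathway genes passing in STAM + Atglistatin against STAM were 2 rather than 1 with no low-count filter, with DESeq2 and with the 2 groups alone, and 1 to 2 when 1 mouse was left out; in STAM + Atglistatin against chow they were 2 with DESeq2. The added gene was Cyp1a1. Genes passing over the whole table were 392 rather than 226 with no low-count filter in STAM + Atglistatin against STAM. Leaving out 1 mouse gave 131 to 332 there, 291 to 724 in STAM against chow and 309 to 757 in STAM + Atglistatin against chow. Library totals without TMM gave 347 higher and 205 lower genes in STAM against chow, instead of 247 higher and 252 lower, and 359 higher and 184 lower in STAM + Atglistatin against chow, instead of 266 and 250. Signs turned for uncalled genes: Ahr in STAM against chow was 0.02 with library totals and at most 0.01 when 1 mouse was left out (lowest -0.17). Leaving out 1 mouse gave -0.12 to 0.49 for Ahr in STAM + Atglistatin against STAM, -0.19 to 0.43 for Ahr against chow, -0.20 to 0.09 for Arnt in STAM + Atglistatin against STAM, and -1.54 to 0.32 for Cyp1a1 in STAM against chow. The cause was not tested. No paired analysis was possible because the groups share no replicate numbers. Depth limits Ahrr, Cyp1a1 and Cyp1b1, which had few counts.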
